A study of Rattus norvegicus with 12 samples.

Results

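Messenger RNA of a clone of INS1E cells, an insulin-secreting rat pancreatic beta-cell line, that was stably transfected with rat islet amyloid polypeptide (rIAPP) was compared with that of a clone carrying the empty vector pcDNA3. The rIAPP clone and the control clone have 2 gene-level arrays each, so 4 of the 12 deposited profiles are compared here, and the comparison covers 18166 genes. These are all gene-level rows with exactly 1 gene symbol, and the brightest row stands for a symbol that has several. The study also holds a clone transfected with human IAPP (hIAPP), measured on 2 gene-level arrays, and the other 6 profiles are exon-level summaries of the same arrays. Per the labels the cells were cultured for 3 days in 11.1 mM glucose and 2 mM glutamine with the selection drug geneticin. Total RNA was turned into biotin-labelled targets and hybridised to Affymetrix rat arrays. Each group is 1 clone, measured as arrays a and b, so the transgene and the history of the clone cannot be told apart. The labels do not say whether a and b were grown separately, and p-values measure only the spread between arrays of 1 clone, which may be technical.

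IAPP, also called amylin, is a peptide hormone that beta cells cut from a precursor, amidate, store in the insulin granule and release together with insulin. The human peptide forms amyloid fibrils in the islets of people with type 2 diabetes, whereas the rat peptide carries prolines in its core and does not, which makes a rat IAPP clone the usual control for peptide overproduction without amyloid. Amylin acts on other cells through the calcitonin receptor joined to receptor activity-modifying proteins. A beta cell folds large amounts of prohormone in its endoplasmic reticulum (ER), and the chaperones, disulfide-forming enzymes and degradation factors of that compartment are switched on together when the folding load rises.

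The largest single difference between the clones was the near loss of signal for Gnat3, the alpha subunit of the taste-cell G protein gustducin. The glucagon receptor gene Gcgr and the PACAP receptor gene Adcyap1r1 were also lower in the rIAPP clone, as were 7 of 16 measured potassium channel accessory subunits and 8 of 13 collapsin response mediators, stathmins and related growth-cone proteins. Of 28 measured genes of ER folding 16 were higher, and so were the ER degradation factor Derl3, the decoy receptor Tnfrsf11b, the neurotrophin receptor Ngfr and several genes of the insulin-like growth factor (IGF) system. Over all genes the same test took 8.7% as higher and 7.3% as lower. Of the genes at or above the median level it took 14.4% and 9.13%. Genes along chromosome 18 lay lower together in the rIAPP clone, by a small amount each. Iapp itself, near the top of the array range in both clones, did not pass the test.

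The 2 arrays of a clone correlated at 0.999 in the rIAPP clone and at 0.99884 in the control clone, and arrays of different clones at 0.9945 to 0.99492 (Pearson r across genes, which are not independent replicates). Values are log2 intensities after robust multi-array averaging (RMA), so a difference of 1 is a factor of 2. The median SD between arrays a and b was 0.039 in the rIAPP clone and 0.0406 in the control clone on that scale. As a mark of dim signal, the 95th percentile of the mean level of 227 olfactory and vomeronasal receptor genes, 7.08, was used. The file gives no detection calls, so the exact size of a difference that reaches down to that mark is uncertain. The number of arrays limits the precision. Of the 9 measured beta-cell markers, 9 were above this mark.

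Iapp (row 17788035) read 13.90 and 13.92 in rIAPP arrays a and b and 13.76 and 13.72 in the control arrays. It read 13.79 and 13.82 in the hIAPP clone, where the transgene is the human sequence. The rIAPP arrays lay above the control arrays without overlap, but the difference of 0.17 (SE 0.0469) had a limma adjusted p of 0.0507 and missed the threshold of 0.05. The mean was higher in rIAPP for 4 of 4 exon-level probe sets. Iapp passed with an intensity trend in limma's model of the spread (adjusted p = 0.000429) and when only genes at or above the median level were fitted (adjusted p = 0.0106), whereas its adjusted p was 0.245 when the median of its exon-level probe sets stood for each gene (exon-level medians below). Which part of the transcript these probes read, and whether the transfected sequence contains it, is not stated by the labels, so the row is a limited check of the label. All 6 arrays also read Iapp near the top of the array range, and whether this limits the difference was not tested. Of the 10 measured genes for amylin, its relatives and their receptors, none was called. The calcitonin receptor gene Calcr read 6.13 on average in the rIAPP clone and 6.25 in the control clone, both under the dim mark.

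At a limma adjusted p under 0.05, 2908 of the 18166 genes were called, 16.0% of those tested. Of these, 1581 (8.7%) were higher in the rIAPP clone and 1327 (7.3%) lower. This excess of rises depended on the normalisation: after quantile normalising the 6 arrays again 1318 were higher and 1367 lower. The median difference was 0.04 for genes at or above the median level and −0.0018 over all genes. Among genes at or above the median level 23.5% were called, 14.4% higher and 9.13% lower. The counts of every gene list below are to be read beside these shares. Most called differences were small: their median size was 0.306, and 2368 were under 0.5. The arrays of the rIAPP and control clones did not overlap for 60.5% of all genes, so a lack of overlap alone says little here. Leaving out rIAPP a gave 1342 calls, rIAPP b 1224, control a 1364 and control b 1658. For that reason the calls that stayed with each of these 4 arrays left out in turn, here named leave-one-out calls, are given beside the counts of the gene lists. There were 983 of them (5.41% of genes tested), 475 higher (2.61%) and 508 lower (2.8%). A difference of at least 1 was seen in 108 called genes (0.595%), 50 higher and 58 lower, and all 108 were leave-one-out calls. In the plot of level against difference Gnat3 stands far below every other gene.

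**Figure D1:**
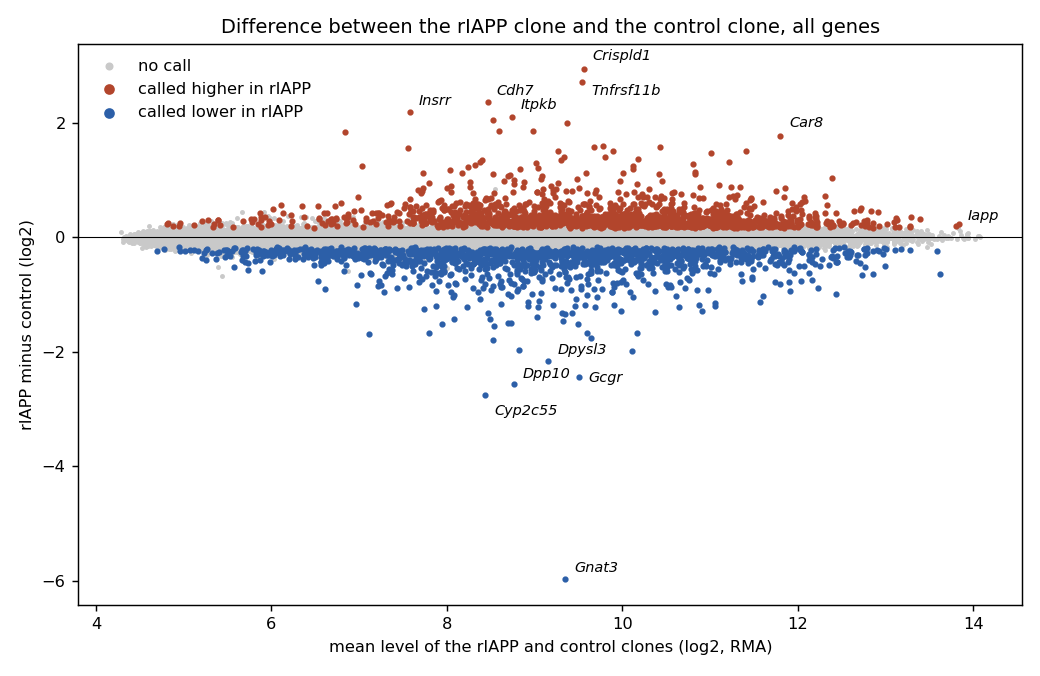
Each point is 1 of 18166 genes, with the mean log2 level of the rIAPP and control clones on the x axis and rIAPP minus control (log2) on the y axis; coloured points were called at a limma adjusted p under 0.05. Of the called genes 1581 lie above 0 and 1327 below, and Gnat3 lies lowest at −5.97.

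Gnat3 (row 17788915) read 6.49 and 6.23 in the rIAPP arrays, against 12.30 and 12.36 in the control arrays and 11.38 and 11.31 in the hIAPP arrays. Both rIAPP arrays sat under the dim mark, while the control and hIAPP arrays were among the bright signals of the file. The log2 difference was −5.97 (SE 0.0839, adjusted p = 1.7e-07), and all 8 exon-level probe sets had lower means in the rIAPP clone, with differences of −6.82 to −4.23. In such bulk samples fewer cells with the transcript and less transcript per cell cannot be told apart. Its neighbours on chromosome 4 in the GRCr8 annotation did not fall with it. Phtf2, next to it on one side, rose by 0.77 (adjusted p = 0.000214) and Sema3c by 0.31 (adjusted p = 0.0098), and Cacna2d1 differed by 0.35. Tmem60 and Rsbn1l were not called.

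The next largest fall was that of Cyp2c55, a cytochrome P450, which read 7.04 and 7.07 in the rIAPP clone and 9.77 and 9.85 in the control clone (difference −2.76, SE 0.0512, adjusted p = 4.46e-07). The rIAPP values lay just under the dim mark, and the hIAPP arrays, at 9.61 and 9.65, were close to the control. Dpp10, an inactive peptidase that serves as an accessory subunit of Kv4 potassium channels, read 7.41 and 7.56 in the rIAPP clone, against 10.09 and 9.98 in the control (difference −2.56). It was lower still in the hIAPP clone, at 6.91 and 6.66. Dpysl3, which encodes the microtubule-binding collapsin response mediator protein CRMP4, read 8.11 and 8.03 in rIAPP cells and 10.22 and 10.24 in control cells (difference −2.16, adjusted p = 2.56e-06), while the hIAPP arrays read 9.88 and 9.77.

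The other falls taken by size were those of the secreted olfactomedin-like gene Olfml1 (−1.98), of Elmod1, a regulator of ARF-family GTPases (−1.97), of the synaptic vesicle gene Sv2c (−1.79), of the cation channel gene Trpc4 (−1.75) and of Plppr3, a phospholipid phosphatase-related protein of neurons (−1.68). The immune-cell adaptor genes Blnk (−1.68) and Fyb1 (−1.66), the lipid scramblase gene Ano6 (−1.54), the coagulation factor subunit gene F13b (−1.52) and the glutamine transporter gene Slc1a5 (−1.51) completed them. The 15 falls did not all set the rIAPP clone apart from the hIAPP clone. Sv2c read 7.66 and 7.61 in rIAPP arrays and 9.43 and 9.42 in control arrays, and the hIAPP arrays, at 7.54 and 7.68, overlapped the rIAPP arrays. Ano6 read 7.74 and 7.78 in rIAPP and 9.32 and 9.29 in control arrays, with hIAPP at 9.09 and 9.03, so here the rIAPP arrays stood apart from both other clones. Of the 15 falls 11 were also called lower than in the hIAPP clone, 3 were not called and Dpp10 was called higher (0.70, adjusted p = 0.00333). The comparisons with control and with hIAPP share the rIAPP arrays.

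**Figure D2:**
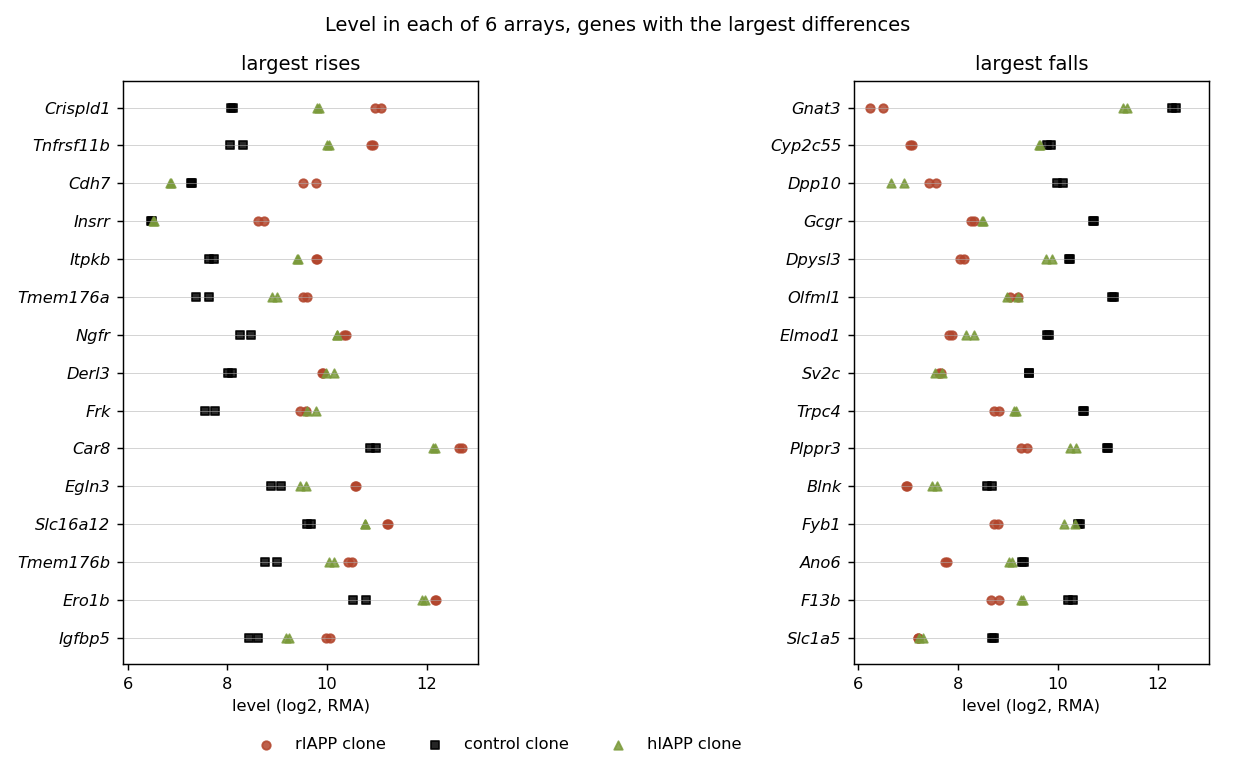
Log2 RMA level on the x axis in each of 6 arrays (rIAPP circles, control squares, hIAPP triangles) for the 15 genes with the largest rises (left) and the 15 with the largest falls (right) by the naming rule. In all 30 genes the rIAPP and control arrays do not overlap, and the hIAPP arrays lie near the rIAPP arrays in some genes (Sv2c, Frk) and near the control arrays in others (Insrr, Cyp2c55).

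Crispld1, a secreted cysteine-rich protein, had the largest rise: it read 10.97 and 11.08 in rIAPP arrays and 8.08 and 8.11 in control arrays (difference 2.93, SE 0.0539, adjusted p = 4.46e-07), with the hIAPP clone between them at 9.83 and 9.80. Tnfrsf11b, which encodes osteoprotegerin, a soluble decoy receptor for the ligand RANKL, read 10.91 and 10.88 in the rIAPP clone and 8.06 and 8.32 in the control (difference 2.70, SE 0.0829, adjusted p = 5.77e-06). Cdh7, a classical cadherin, read 9.52 and 9.77 in rIAPP arrays, against 7.26 and 7.30 in control arrays and 6.86 and 6.85 in hIAPP arrays (difference from control 2.37). Insrr, an orphan member of the insulin receptor family known as an alkali sensor, read 8.73 and 8.61 in the rIAPP clone and 6.49 and 6.47 in the control clone (difference 2.19), where it was under the dim mark, and its hIAPP arrays read 6.51 and 6.52. For Cdh7 and Insrr the signal was thus raised in the rIAPP clone alone of the 3 clones.

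Itpkb, a kinase that converts the calcium-releasing messenger inositol trisphosphate, rose by 2.11, and Car8, a carbonic anhydrase-related protein that binds the receptor of that messenger, by 1.76. The adjacent genes Tmem176a and Tmem176b, which encode related membrane proteins, rose by 2.04 and 1.58. Gimap1, Gimap5 and Gimap7 beside them were not called, but all lay under the dim mark in both clones, so this says little. Further rises were those of the neurotrophin receptor gene Ngfr (2.00), the ER factor Derl3 (1.86), the tyrosine kinase gene Frk (1.86), the oxygen-sensing prolyl hydroxylase gene Egln3 (1.60), the creatine transporter gene Slc16a12 (1.58), the disulfide oxidase gene Ero1b (1.51) and the IGF-binding protein gene Igfbp5 (1.51). Of the 15 rises 11 were also called higher than in the hIAPP clone, and 4 (Derl3, Ero1b, Frk and Ngfr) were not called against it. Over all genes 2120 were called between the rIAPP and hIAPP clones (11.7%), and 733 (4.04%) were called against control and against hIAPP in the same direction.

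Receptors of islet cells for peptide hormones and other messengers moved in opposite directions. Of 29 measured, 5 were called higher and 4 lower (31%, against 16.0% of all genes), with a median difference of 0.01 beside −0.0018 over all genes. Of these calls 4 rises and 4 falls were leave-one-out calls. Gcgr, the receptor through which glucagon raises cyclic AMP, read 8.26 and 8.32 in rIAPP arrays, against 10.71 and 10.73 in control arrays, a difference of −2.43 (SE 0.0484, adjusted p = 5.61e-07). The hIAPP arrays read 8.49 and 8.48, closer to the rIAPP arrays. Adcyap1r1, a receptor for the neuropeptide PACAP, read 8.02 and 7.87 in the rIAPP clone and 9.44 and 9.46 in the control clone (difference −1.50, adjusted p = 1.31e-05). The oxytocin receptor gene Oxtr (−0.62) and the galanin receptor gene Galr1 (−0.49) fell as well. The incretin receptors went the other way: Gipr, the receptor for glucose-dependent insulinotropic polypeptide, read 11.36 and 11.38 in rIAPP arrays and 10.85 and 10.90 in control arrays (difference 0.50, adjusted p = 0.00114), and Glp1r, named after its value was seen, averaged 13.06 in rIAPP and 12.61 in control cells (difference 0.45, adjusted p = 0.000807). The muscarinic receptor gene Chrm3, through which acetylcholine acts on beta cells, rose by 0.51.

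Of the 27 measured subunits of heterotrimeric G proteins, which carry the signal from such receptors, 2 were called higher and 5 lower (25.9%), and 3 falls but no rise were leave-one-out calls. Over all genes 16.0% were called, and among those at or above the median level 23.5%. After Gnat3 the gamma subunits Gng7 (−0.88) and Gng3 (−0.78) fell furthest. Gng3 read 11.36 and 11.34 in rIAPP arrays, 12.05 and 12.21 in control arrays and 9.28 and 9.21 in hIAPP arrays, so it was much lower in the hIAPP clone than in either other. Of 13 genes of taste-cell signalling, 3 were called higher and 1, Gnat3, lower (30.8%, against 16.0% of all genes), with 1 leave-one-out call in each direction. Trpm5, the cation channel that gustducin signalling opens in taste cells, read 8.46 and 8.31 in the rIAPP clone and 7.91 and 7.90 in the control (difference 0.48, adjusted p = 0.00202). The taste receptor genes Tas1r1, Tas1r2 and Tas1r3 were not called, and only 1 of the 3 was above the dim mark in either clone. Among 45 enzymes that make or break second messengers, 5 were called higher and 8 lower (28.9%, against 16.0% of all genes and 23.5% of those at or above the median level), and the leave-one-out calls were 3 rises and 4 falls. Adenylyl cyclase genes differed in sign, with Adcy8 at 0.54 and Adcy1 at −0.58, and the phosphodiesterase genes Pde7b (−0.86) and Pde2a (−0.50) fell. Plcb3, a phospholipase C that yields inositol trisphosphate, rose by 0.54. On exon-level medians Adcy8 and Pde2a were not called.

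Genes of ER protein folding were higher in the rIAPP clone. Of 28 measured chaperones and folding enzymes, 16 were called higher and 1 lower (60.7%, against 16.0% of all genes tested and 23.5% of genes at or above the median level), and the median difference was 0.21. With each of the 4 arrays left out in turn 10 of the rises and the 1 fall stayed. Sdf2l1, a partner of the ER chaperone BiP, read 10.53 and 10.46 in rIAPP arrays and 9.06 and 9.15 in control arrays (difference 1.40, SE 0.0542, adjusted p = 1.04e-05). Ero1b, the oxidase that drives disulfide formation in the ER of beta cells, read 12.16 and 12.18 in the rIAPP clone and 10.52 and 10.79 in the control (difference 1.51, SE 0.0842, adjusted p = 4.21e-05). Both genes were separated from control by far more than the spread between arrays. The disulfide isomerase-like gene Creld2 (0.70), the large chaperone Hyou1 (0.62) and Dnajc3, a co-chaperone that also restrains the stress kinase PERK (0.57), rose by less. Hspa5, which encodes BiP itself, averaged 13.95 in rIAPP and 13.71 in control cells near the top of the array range (difference 0.24, adjusted p = 0.0135). That call and the one of Hsp90b1 (0.20, adjusted p = 0.0263) were not leave-one-out calls, and both were named after their values were seen.

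The fall was that of Sil1, the nucleotide exchange factor of BiP, which read 10.16 and 10.21 in rIAPP arrays, 10.72 and 10.70 in control arrays and 10.66 and 10.62 in hIAPP arrays (difference from control −0.52, adjusted p = 0.000529). Sil1 lies on chromosome 18, described below. Of 22 measured genes of ER-associated degradation, which returns misfolded proteins to the cytosol, 6 were called higher and none lower (27.3%), 4 of them leave-one-out calls. All 22 are at or above the median level, where 23.5% of genes were called and 14.4% were called higher, so the share of calls is near that of such genes. Derl3, a membrane protein of the retrotranslocation machinery, read 9.90 and 9.93 in the rIAPP clone and 8.01 and 8.09 in the control clone (difference 1.86, SE 0.0664, adjusted p = 7.59e-06). Edem1, which marks glycoproteins for degradation, rose by 0.52, Herpud1 by 0.44 and Sel1l, an adaptor of the ubiquitin ligase Hrd1, by 0.41. Among 39 measured stress sensors and genes of the ATF4 and CHOP branch 7 were called higher and 2 lower (23.1%), and neither fall was a leave-one-out call. The lipoprotein receptor gene Vldlr (0.71), Ddit4, an inhibitor of the growth kinase mTORC1 (0.59), and the serine-glycine enzyme gene Shmt2 (0.38) were its leave-one-out rises. The transcription factor genes Atf4 (0.12), Ddit3 (0.10) and Xbp1 (−0.08) were not called. In the hIAPP clone the same ER genes lay near the rIAPP levels, with Sdf2l1 at 10.55 and 10.55 and Derl3 at 9.97 and 10.14, and against that clone 3 of the 28 folding genes and 1 of the 22 degradation genes were called.

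**Figure D3:**
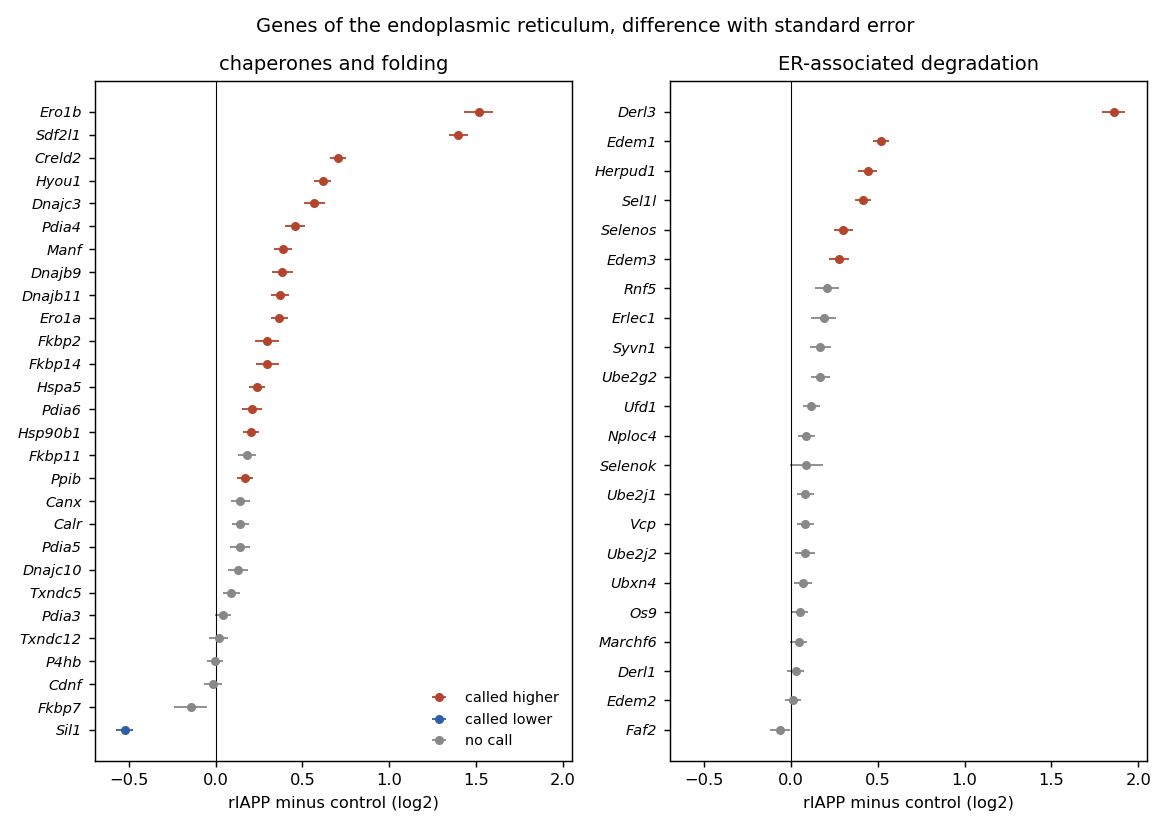
rIAPP minus control (log2, x axis) with the standard error from limma for each of 28 measured ER chaperone and folding genes (left) and 22 genes of ER-associated degradation (right), sorted by size and coloured by call. The called genes lie to the right of 0 except Sil1 at −0.52, and Derl3, Ero1b and Sdf2l1 lie farthest right.

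Promoters of these genes were searched for the ER stress response element (ERSE: CCAAT, then 9 bases of any kind, then CCACG), the element that ATF6 and XBP1 act through together with NF-Y, and for ERSE-II (ATTGG, then 1 base of any kind, then CCACG), on both strands of the 250 bases before the start of each gene. ERSE was found in 22 of 33469 rat promoters (0.0657%) and ERSE-II in 14 (0.0418%). Of the 50 listed ER genes measured, 42 had a promoter in the table. ERSE stood in 8 of these and ERSE-II in 2 others, Herpud1 and Hyou1. Of the 19 genes called higher that had a promoter, 6 held ERSE and 2 held ERSE-II; of the 23 other ER genes 2, Calr and Canx, held ERSE. The match is a description of these letters and does not show that a factor binds there. The stretches below, from RefSeq on GRCr8, are shown because they hold the shared element in the promoters of genes that rose, with Calr and Canx, which were not called, for comparison. Each is written 5′ to 3′ on the strand of its gene with the element, or its reverse complement, in capitals; no ERSE overlaps an ERSE-II in them.
Ero1b (chr17:92941433-92941501, + strand, rIAPP minus control 1.51): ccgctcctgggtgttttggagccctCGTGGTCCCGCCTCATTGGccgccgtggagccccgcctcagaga
Derl3 (chr20:12766576-12766644, − strand, 1.86): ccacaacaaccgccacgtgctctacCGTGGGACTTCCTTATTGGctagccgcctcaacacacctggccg
Creld2 (chr7:121789214-121789282, + strand, 0.70): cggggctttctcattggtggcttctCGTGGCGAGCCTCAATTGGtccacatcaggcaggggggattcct
Dnajc3 (chr15:102432509-102432577, + strand, 0.57): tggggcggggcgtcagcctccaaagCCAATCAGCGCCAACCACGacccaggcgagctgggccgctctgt
Hspa5 (chr3:38452948-38453015, + strand, 0.24): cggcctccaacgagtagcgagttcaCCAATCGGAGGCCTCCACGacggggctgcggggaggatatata
Hsp90b1 (chr7:23012322-23012390, − strand, 0.20): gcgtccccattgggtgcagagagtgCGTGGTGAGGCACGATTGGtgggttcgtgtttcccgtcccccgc
Hyou1 (ERSE-II, chr8:53602669-53602729, + strand, 0.62): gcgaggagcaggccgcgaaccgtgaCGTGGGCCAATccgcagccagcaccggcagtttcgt
Herpud1 (ERSE-II, chr19:10614796-10614856, − strand, 0.44): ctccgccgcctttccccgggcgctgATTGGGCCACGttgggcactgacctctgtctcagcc
Calr (chr19:40213117-40213178, + strand, 0.14, no call): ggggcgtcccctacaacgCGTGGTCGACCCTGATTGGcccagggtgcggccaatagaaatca
Canx (chr10:35158044-35158107, − strand, 0.14, no call): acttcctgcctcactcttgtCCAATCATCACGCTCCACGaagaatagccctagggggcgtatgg

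Ligands, binding proteins and receptors of insulin and IGF signalling were called in both directions. Of 36 measured genes of this system, 9 were called higher and 3 lower (33.3%), and 7 rises and 3 falls were leave-one-out calls. Beside this stand 16.0% of all genes and 23.5% of those at or above the median level, where 28 of the 36 lie. The 4 measured receptor genes were all called, 3 higher and 1 lower, against 3 of 23 intracellular signalling genes. Igf1, the growth factor ligand, read 11.88 and 11.86 in rIAPP arrays and 10.52 and 10.59 in control arrays (difference 1.32, SE 0.0496, adjusted p = 8.94e-06). Binding proteins, which hold IGFs outside the cell, split: Igfbp5 rose by 1.51 and Igfbp3 by 0.87, whereas Igfbp2 read 7.79 and 7.76 in rIAPP cells and 9.15 and 9.27 in control cells (difference −1.43). The insulin receptor gene Insr read 8.20 and 8.28 in the rIAPP clone and 9.05 and 8.95 in the control clone (difference −0.76, adjusted p = 0.000181), with the hIAPP arrays at 8.86 and 8.88. Igf1r, the main IGF receptor and named after its value was seen, averaged 12.42 in rIAPP and 11.72 in control cells (difference 0.70, adjusted p = 0.000225).

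In the tumour necrosis factor (TNF) receptor family and the neurotrophin receptors, 5 of 30 measured genes were called higher and 6 lower (36.7%), with 4 leave-one-out calls in each direction. The share was 16.0% over all genes and 23.5% at or above the median level, where 10 of the 30 lie. Beside Tnfrsf11b, the neurotrophin receptor gene Ngfr (p75) read 10.39 and 10.34 in rIAPP arrays and 8.25 and 8.48 in control arrays (difference 2.00, SE 0.0745, adjusted p = 8.87e-06). Ntrk3, the kinase receptor for neurotrophin-3, rose by 0.87 and the ectodysplasin receptor gene Eda2r by 0.77. Tnfsf10, the death ligand TRAIL, read 8.52 and 8.72 in the rIAPP clone and 9.77 and 9.82 in the control clone (difference −1.18). It was higher in the hIAPP arrays, at 10.10 and 10.00, and Tnfrsf14 fell by 0.50. The RANKL gene Tnfsf11, whose product osteoprotegerin binds, was not called.

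Among 97 other growth factor ligands and receptors 20 were called higher and 9 lower (29.9%), with 10 rises and 6 falls as leave-one-out calls. Over all genes 16.0% were called, and 23.5% of those at or above the median level, where 37 of the 97 lie. Hbegf, an epidermal growth factor receptor ligand, read 8.89 and 8.64 in rIAPP arrays and 10.02 and 10.16 in control arrays (difference −1.33, adjusted p = 0.00011). Tgfb2 fell by 1.17, to a mean of 6.38 under the dim mark in rIAPP cells, against 7.55 in control cells and 8.62 in hIAPP cells. Bmp7, a bone morphogenetic protein, read 9.11 and 9.09 in the rIAPP clone, 10.07 and 10.15 in the control clone and 7.85 and 8.07 in the hIAPP clone, with the rIAPP arrays between the other clones. Of receptors, the activin receptor ALK7 gene Acvr1c rose by 0.85, and Tgfbr3, a coreceptor for transforming growth factor beta, was higher by 0.69. The receptor tyrosine kinase gene Ret, which answers glial cell line-derived ligands, read 11.40 and 11.40 in rIAPP arrays and 10.29 and 10.23 in control arrays (difference 1.14, adjusted p = 1.56e-05). In the Notch group Hes1, a target of that pathway, rose by 0.66.

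Potassium channel genes were called lower more often than higher. Of 53 measured, 4 were called higher and 15 lower (35.8%; over all genes 8.7% and 7.3%), with a median difference of −0.08; the leave-one-out calls were 2 and 8. Of 16 accessory subunits 7 were called lower and none higher, and 9 of the 16 were above the dim mark in either clone. After Dpp10, Kcnip3, a calcium-binding partner of Kv4 channels, read 11.80 and 11.76 in rIAPP arrays and 12.65 and 12.68 in control arrays (difference −0.89, adjusted p = 3.82e-05). Kcnmb2, a subunit of large-conductance calcium-activated channels, fell by 0.62 and Kcnj3, a G protein-gated inward rectifier, by 0.79. Among pore-forming genes Kcnq1 read 9.72 and 9.54 in rIAPP cells and 8.79 and 8.68 in control cells (difference 0.89), and Kcnd3, a Kv4 channel, rose by 0.79. The gene of the pore of the beta cell's ATP-sensitive channel, Kcnj11, differed by 0.22 (adjusted p = 0.03), and that call ended when any of the 4 arrays was left out.

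Of 48 calcium, sodium and TRP channel and transporter genes 9 were called higher and 13 lower (45.8%), with 6 rises and 9 falls as leave-one-out calls. TRP cation channels differed in sign. Trpc4 read 8.72 and 8.82 in rIAPP arrays and 10.51 and 10.53 in control arrays (difference −1.75, SE 0.0542, adjusted p = 5.77e-06). Trpm2, a channel opened by ADP-ribose, read 9.61 and 9.68 in the rIAPP clone and 8.52 and 8.33 in the control clone (difference 1.22, adjusted p = 8.27e-05), and Trpv1, the capsaicin receptor, rose by 1.20. Cacna2d3, an auxiliary subunit of voltage-gated calcium channels, fell by 0.96 and the sodium-calcium exchanger gene Slc8a2 by 0.85. Of the 43 genes of the synaptic and exocytosis machinery, 5 were called higher and 6 lower (25.6%), falling to 2 and 3 leave-one-out calls. That share of calls is near the 23.5% of genes at or above the median level, where 36 of the 43 lie. The vesicle GTPase gene Rab3b (−0.87) and the calcium sensor gene Syt5 (−0.43) fell with Sv2c, and the granuphilin gene Sytl4, whose product docks insulin granules, read 12.65 and 12.68 in rIAPP cells and 11.96 and 11.92 in control cells (difference 0.73).

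Genes of neurite growth and its cytoskeleton had the highest share of calls after the ER folding genes. Of 64 measured, 15 were called higher and 23 lower (59.4%), of which 8 and 14 were leave-one-out calls. In the group of collapsin response mediators, stathmins and related growth-cone proteins 8 of 13 were called lower and 1 higher. Besides Dpysl3, Stmn2, a tubulin-binding protein of growing axons, averaged 11.11 in rIAPP and 11.84 in control cells (difference −0.73, adjusted p = 0.000114), and Basp1, a membrane protein of growth cones, 11.82 in rIAPP and 12.33 in control cells (difference −0.51); both were named after their values were seen. The microtubule-linked kinase gene Dclk1 read 9.59 and 9.62 in rIAPP arrays and 10.55 and 10.57 in control arrays (difference −0.95, adjusted p = 4.33e-05). Guidance genes were evenly split, with 9 called higher and 8 lower of 30. Epha5, an ephrin receptor, read 9.03 and 9.13 in the rIAPP clone and 7.96 and 7.98 in the control clone (difference 1.11), and Elmo1, which links receptors to Rac activation, rose by 0.98.

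Cadherins and other adhesion genes were called in both directions, 10 higher and 14 lower of 77 (31.2%), with 9 and 8 leave-one-out calls. The share was 16.0% over all genes and 23.5% at or above the median level, where 28 of the 77 lie. Cdh2, the N-cadherin of beta cells and neurons, read 10.28 and 10.30 in rIAPP arrays, 11.47 and 11.46 in control arrays and 11.23 and 11.19 in hIAPP arrays (difference from control −1.18, adjusted p = 1.12e-05). Cdh11 fell by 0.91 and the axonal adhesion gene Cntn1 by 0.81. Against these falls stood the rises of Cdh7 and of Cdh6, which read 8.38 and 8.28 in the rIAPP clone and 6.71 and 6.83 in the control clone (difference 1.56), the control values being under the dim mark. Cdh23 rose by 0.82 but was not called on exon-level medians.

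Of 37 glutamate, GABA and glycine receptor genes, 4 were called higher and 6 lower (27%), and 2 rises and all 6 falls were leave-one-out calls. The share was 16.0% over all genes and 23.5% at or above the median level, where 14 of the 37 lie. Among GABA type A subunits Gabrg3 read 10.26 and 10.26 in rIAPP arrays and 11.59 and 11.53 in control arrays (difference −1.29, adjusted p = 1.56e-05), and Gabrd fell by 1.19. Gabre read 8.94 and 9.13 in the rIAPP clone, 7.68 and 7.75 in the control clone and 7.05 and 7.17 in the hIAPP clone (difference from control 1.32), and was thus highest in rIAPP cells. Of glutamate receptors the NMDA subunit gene Grin1 (−0.87) and the AMPA subunit gene Gria4 (−0.83) fell and the kainate subunit gene Grik3 rose by 0.93.

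Genes that present antigen to T cells were called higher in 7 of 12 and lower in none (58.3%), 5 of them leave-one-out calls. The interferon-responsive genes measured beside them gave 3 higher and 3 lower of 22, with 1 rise and no fall as leave-one-out calls. Psmb8, a catalytic subunit of the immunoproteasome, read 9.60 and 9.64 in rIAPP arrays and 8.86 and 8.75 in control arrays (difference 0.82, SE 0.0579, adjusted p = 0.000139). Psmb9 rose by 0.71 and the peptide transporter genes Tap1 by 0.78 and Tap2 by 0.54; Psmb8, Psmb9, Tap1 and Tap2 are neighbours in the major histocompatibility complex on chromosome 20. RT1-S3, a class I gene whose probes may also read related class I genes, differed by 0.77. The chemokine gene Cxcl11 read 9.13 and 9.16 in rIAPP cells and 8.20 and 8.12 in control cells (difference 0.99). In the hIAPP clone Psmb8 was higher still, at 10.03 and 9.96.

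Of 46 measured transporter genes 31 were in an amino acid group and 15 in a zinc group. Of the 46, 13 were called higher and 6 lower (41.3%, against 16.0% of all genes and 23.5% of those at or above the median level). The amino acid group held 9 rises and 4 falls and the zinc group 4 and 2. As leave-one-out calls 5 rises and 4 falls remained. Over all genes such calls held no excess of rises either (2.61% higher and 2.8% lower). Slc1a5 read 7.19 and 7.20 in rIAPP arrays and 8.68 and 8.72 in control arrays, and Slc7a14, a lysosomal member of the cationic amino acid transporter family, fell by 1.20. The glycine transporter gene Slc6a9 rose by 0.71, the neutral amino acid transporter gene Slc6a15 by 0.70 and Slc38a4 by 0.61. Antioxidant genes were called in equal numbers, 6 higher and 6 lower of 38 (31.6%), with 4 and 3 leave-one-out calls. The quinone reductase gene Nqo1 read 8.96 and 8.94 in the rIAPP clone and 7.53 and 7.84 in the control clone (difference 1.26, adjusted p = 0.000154), and Nfe2l2, which encodes the transcription factor NRF2 that acts on it, rose by 0.42. The 19 measured NRF2 targets did not move as a group: 4 were called higher, 2 lower and 13 not, with a median difference of 0.01. Txnip, an inhibitor of thioredoxin that glucose induces in beta cells, read 11.10 and 11.09 in rIAPP cells and 12.11 and 12.12 in control cells (difference −1.02, adjusted p = 3.66e-05). Selenop read 6.81 and 6.76 in rIAPP arrays and 7.72 and 7.56 in control arrays, against 11.31 and 11.12 in the hIAPP arrays. Both rIAPP values of this selenium carrier were under the dim mark, and the hIAPP clone was far above both others.

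Of 35 apoptosis and p53 genes, 9 were called higher and 3 lower (34.3%), with 2 leave-one-out calls in each direction. Beside this stand 16.0% of all genes and 23.5% of those at or above the median level, where 26 of the 35 lie. The survival gene Bcl2 read 10.17 and 10.11 in rIAPP arrays and 8.98 and 9.06 in control arrays (difference 1.12, SE 0.059, adjusted p = 3.66e-05), and the death-promoting family member Bcl2l11 fell by 0.43, a call that ended on exon-level medians. Tp53inp1, a p53 target, rose by 0.50. Among 25 genes that cut or bind amyloid-forming peptides 3 were called higher and 3 lower (24%), with 1 leave-one-out call in each direction. Their share of calls is near the 23.5% of genes at or above the median level, where 17 of the 25 lie. Clu, an extracellular chaperone that binds amyloid peptides, read 9.71 and 9.72 in rIAPP arrays, 11.04 and 10.99 in control arrays and 9.76 and 9.78 in hIAPP arrays (difference from control −1.30, adjusted p = 7.71e-06). Bace2, a protease known to cut pro-IAPP, read 11.21 and 11.15 in the rIAPP clone, 10.39 and 10.48 in the control clone and 11.58 and 11.56 in the hIAPP clone (difference from control 0.74). Ide, whose product is known to degrade insulin and IAPP, was not called (−0.08, adjusted p = 0.361).

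The insulin genes were lower in the rIAPP clone. Ins1 read 12.82 and 12.65 in rIAPP arrays and 13.30 and 13.19 in control arrays (difference −0.51, SE 0.0791, adjusted p = 0.00565). Ins2 read 12.67 and 12.39 in rIAPP cells and 13.28 and 13.06 in control cells (difference −0.64, SE 0.15, adjusted p = 0.0269), with a wider spread than most genes, and its call ended without rIAPP b (adjusted p = 0.158), control a (0.139) or control b (0.0537), and on exon-level medians (0.287). Ins1 and Ins2 are closely related copies, so probes may read both. Of 27 islet hormone and granule genes 3 were called higher and 6 lower (33.3%), with 3 and 4 leave-one-out calls. Over all genes 16.0% were called, and 23.5% of those at or above the median level, where 21 of the 27 lie. The rises were 1 hormone gene, Ero1b (1.51) and Sytl4 (0.73), the last 2 counted in lists above as well. Chgb, a granin that packs the granule, read 13.29 and 13.31 in the rIAPP clone and 13.94 and 13.93 in the control clone (difference −0.64), and Scg5, a chaperone of the prohormone convertase PC2, fell by 0.51. Qpct, which cyclises the ends of peptide hormones, differed by −0.88. The genes of glucagon, Gcg (−0.01), and of somatostatin, Sst (−0.15), were not called.

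Beta-cell transcription factor genes were called higher in 2 and lower in 4 of 18 (33.3%), all by less than 1, and the leave-one-out calls were 2 falls and no rise. Over all genes 16.0% were called, and 23.5% of those at or above the median level, where 15 of the 18 lie. The serotonergic factor gene Fev (−0.61) and the glucocorticoid receptor gene Nr3c1 (−0.35) fell, and both calls ended on exon-level medians. Mafa, an activator of insulin transcription, read 11.36 and 11.28 in rIAPP arrays and 10.96 and 10.98 in control arrays (difference 0.35, adjusted p = 0.00758), a call that ended without rIAPP a or control a. Of 14 glucose-sensing genes 5 were called higher and 1 lower (42.9%), with 1 leave-one-out call in each direction. The pyruvate kinase gene Pklr read 10.83 and 10.81 in rIAPP cells and 11.35 and 11.39 in control cells (difference −0.55), and the glucose transporter gene Slc2a1 rose by 0.43. Among 33 immediate-early genes, 4 were called higher and 5 lower (27.3%), with 2 and 4 leave-one-out calls. That share is near the 23.5% of genes at or above the median level, where 18 of the 33 lie. Crem (−0.64) and Egr1 (−0.40) fell and the phosphatase gene Dusp5 was higher by 0.59.

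Several lists held few calls. None of 30 respiratory chain genes and 2 of 22 genes of the tricarboxylic acid cycle were called, among them Idh2 (0.31), the 1 leave-one-out call. The cell cycle list gave 1 higher and 4 lower of 56 (8.93%), with the mitotic kinesin gene Kif20a at −0.32 and E2f1 at −0.36, both leave-one-out calls. Autophagy and lysosome genes gave 3 higher and none lower of 37 (8.11%), 1 of them a leave-one-out call. These shares lay under the 16.0% of all genes. Cholesterol and fatty-acid synthesis gave 3 higher and 3 lower of 30 (20%), none of which stayed called with every array left out. This share lay above the 16.0% of all genes but under the 23.5% of those at or above the median level, where 28 of the 30 lie. Of 52 xenobiotic and aldehyde metabolism genes 4 were called higher and 8 lower (23.1%, also above 16.0%), with 2 and 3 leave-one-out calls. Among the rises was Maob, a monoamine oxidase, which read 12.89 and 12.92 in rIAPP arrays and 11.85 and 11.88 in control arrays.

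**Figure D4:**
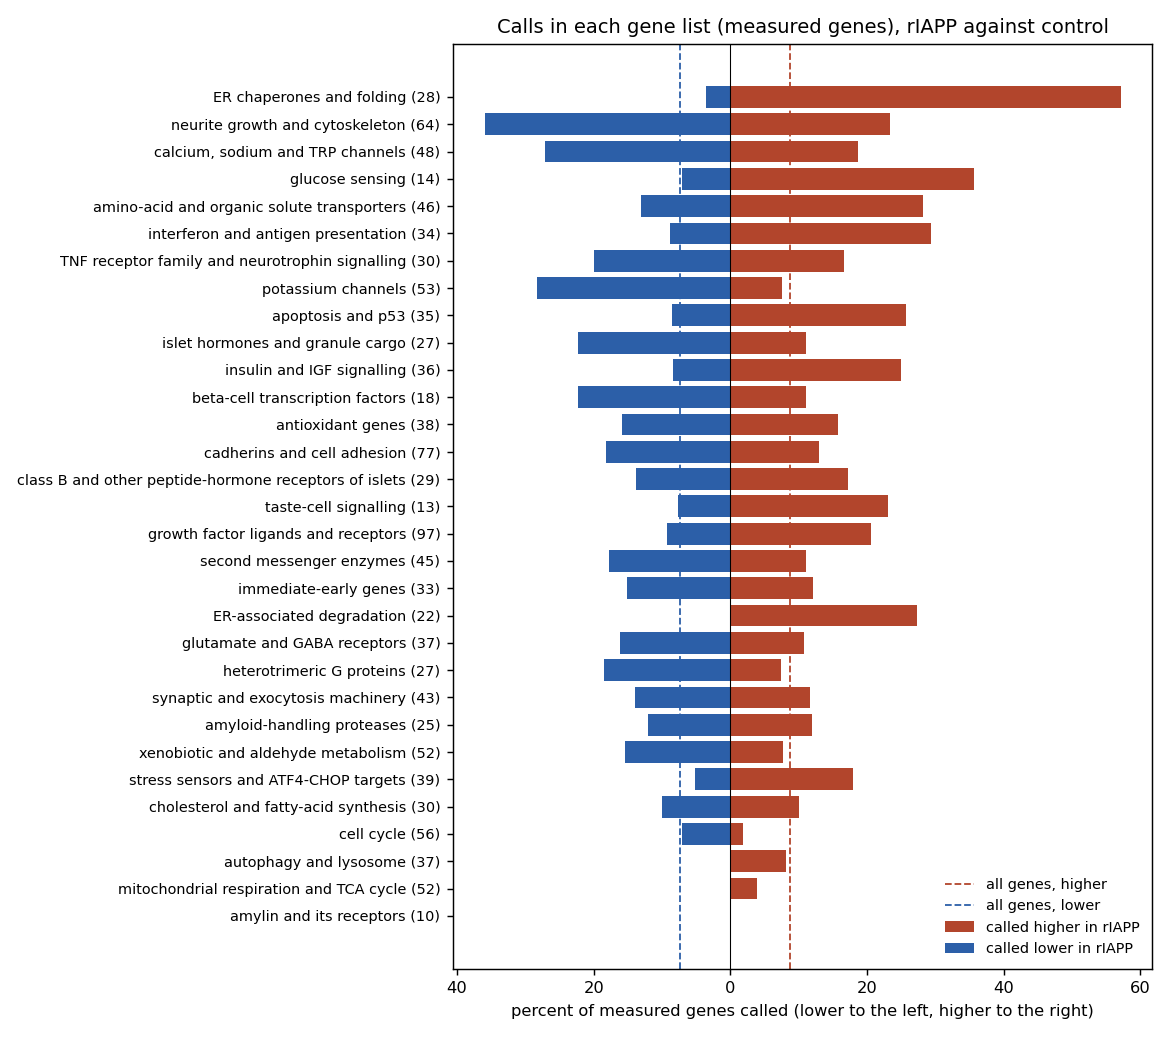
Percent of the measured genes of each of 31 lists (number measured in brackets) called higher (right) and lower (left) in the rIAPP clone than in the control clone; dashed lines give the shares over all 18166 genes, 8.7% higher and 7.3% lower. ER folding genes lean to the right, potassium channel genes to the left, and neurite genes extend to both sides.

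The arrays also hold rows for precursor genes of microRNAs, short RNAs that repress messenger RNAs through a seed at their 5′ end. Such a row reads the precursor's transcript and not the mature microRNA. Of 363 tested, 26 were called (10 higher and 16 lower; 7.16%, against 16.0% of all genes), and 103 were above the dim mark. Leave-one-out calls were 3 rises and 3 falls, and the mature sequences of these 6 are printed because they are the precursors whose difference did not hang on 1 array. They come from RefSeq on GRCr8, 5′ to 3′, with the seed (bases 2 to 8) in capitals, and no seed is shared among them.
rno-miR-224-5p: cAAGUCACuagugguuccguuu
rno-miR-224-3p: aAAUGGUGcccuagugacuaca
rno-miR-24-1-5p: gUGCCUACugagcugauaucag
rno-miR-24-3p: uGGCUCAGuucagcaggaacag
rno-miR-23b-5p: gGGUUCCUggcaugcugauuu
rno-miR-23b-3p: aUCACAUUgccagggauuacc
rno-miR-192-5p: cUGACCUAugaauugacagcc
rno-miR-192-3p: cUGCCAGUuccauaggucacag
rno-miR-21-5p: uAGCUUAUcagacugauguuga
rno-miR-21-3p: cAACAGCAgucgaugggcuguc
rno-let-7a-5p: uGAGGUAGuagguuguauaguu
rno-let-7a-1-3p: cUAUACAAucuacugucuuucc

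Mir224 read 7.68 and 7.83 in rIAPP arrays, 5.92 and 5.90 in control arrays and 5.53 and 5.83 in hIAPP arrays (difference from control 1.84, SE 0.0987, adjusted p = 3.78e-05), so it was above the dim mark in the rIAPP clone alone. Gabre, beside it on chromosome X, was also highest in the rIAPP clone. Mir24-1 read 9.36 and 9.24 in the rIAPP clone and 8.44 and 8.41 in the control clone (difference 0.87, adjusted p = 8.2e-05). Mir23b, which lies on chromosome 17 with Mir27b between it and Mir24-1, read 10.11 and 10.06 in rIAPP arrays and 9.34 and 9.41 in control arrays (difference 0.71). Mir27b rose by 0.55, a call that ended without rIAPP a (adjusted p = 0.0611). Mir3074, next to Mir24-1 on the other side and above the dim mark, was not called (0.07, adjusted p = 0.604). Mir192 read 7.65 and 7.49 in rIAPP arrays and 8.49 and 8.57 in control arrays (difference −0.96, adjusted p = 0.000491), and its neighbour Mir194-2 differed by −0.27 (adjusted p = 0.0193), which was not a leave-one-out call. Mir21 read 7.32 and 7.38 in the rIAPP clone, 7.81 and 7.89 in the control clone and 8.45 and 8.38 in the hIAPP clone (difference from control −0.50). Mirlet7a1 differed by −0.35 (adjusted p = 0.00639) and was not called on exon-level medians (0.057).

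Genes of chromosome 18 lay lower in the rIAPP clone. Of its 400 measured genes 30.8% were called, 8 higher and 115 lower, against 16.0% of all genes tested (8.7% higher and 7.3% lower), and 4 and 45 were leave-one-out calls. Among its 230 genes at or above the median level, 87.8% had a lower mean in the rIAPP clone, and their median difference was −0.17, against 0.04 for such genes on the other chromosomes. In the 4 pairings of an rIAPP with a control array this median ran from −0.18 to −0.16. It was −0.21 after quantile normalising the 6 arrays again and −0.19 on exon-level medians. Set against the hIAPP clone, the rIAPP clone was lower on this chromosome by a median of −0.15, while the hIAPP clone differed from control by −0.03. Over all other chromosomes the medians of rIAPP minus control ran between −0.06 on chromosome 17 and 0.10 on chromosome 15. Chromosome 17 was thus shifted the same way by less, with 74 genes called lower and 29 higher. Of its genes at or above the median level 66.2% had a lower mean in the rIAPP clone, and their median against hIAPP was −0.08. On chromosome 16 the rIAPP clone was lower than the hIAPP clone by a median of −0.18, but not lower than control (0.09), and there hIAPP minus control was 0.27. Copy number was not measured, and its part in this difference was not tested.

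The difference on chromosome 18 was spread along it. A running median over 51 neighbouring genes at or above the median level, in GRCr8 order, was lowest between Reep5 and Nr3c1 (−0.28, with 2 genes called higher and 31 lower), and low also between Snx24 and C18h18orf54 (−0.20) and between Mtcp1 and Iws1 (−0.19). Of all 7994 such windows over the genome, the 5th percentile was −0.05 and the 95th 0.11. Genes of chromosome 18 named above that fell by more than this shift are Dpysl3 (−2.16), Hbegf (−1.33), Cdh2 (−1.18), Sil1 (−0.52), Galr1 (−0.49), Egr1 (−0.40), Nr3c1 (−0.35) and Kif20a (−0.32). Others are Rit2, a neuronal GTPase, which read 8.81 and 8.91 in rIAPP arrays and 9.99 and 10.12 in control arrays, and Ablim3, an actin-binding protein, with a difference of −0.91. Colec12, a scavenger receptor, went against the chromosome, with 9.20 and 9.25 in the rIAPP clone and 8.37 and 8.22 in the control clone (difference 0.93). Pcdhb12, a clustered protocadherin whose probes may read related genes, was higher at gene level (0.79) but lower with the median of its exon-level probe sets (−0.44, adjusted p = 0.0473).

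**Figure D5:**
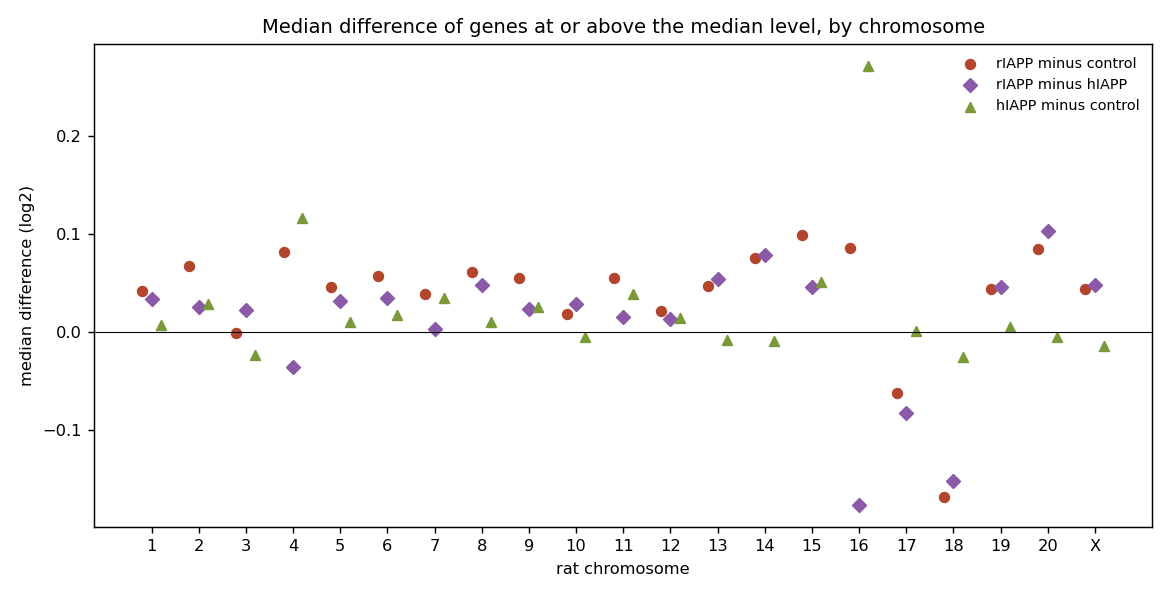
Median log2 difference (y axis) of genes at or above the median level on each rat chromosome (x axis) for rIAPP minus control (circles), rIAPP minus hIAPP (diamonds) and hIAPP minus control (triangles). On chromosome 18 the rIAPP clone lies below both other clones, at −0.17 against control and −0.15 against hIAPP, whereas hIAPP minus control is −0.03; on chromosome 16 the hIAPP clone lies above both others.

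The windows with the highest medians lay on chromosome 4 between Edem1 and Kdm5a (0.16, 17 genes called higher and 3 lower, with hIAPP minus control at 0.32), on chromosome 20 between Flot1 and Phf1 (0.15, 13 and 2) and on chromosome 11 between Wdr5b and Tbccd1 (0.14, 15 and 2). The largest rises in them were those of Ret, Psmb8 and Hes1. The chromosome 20 window spans the major histocompatibility complex, so the antigen presentation genes above are among neighbours that were higher together.

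Markers of other cell types that a culture could hold were read on the same arrays. The log2 of the summed level of the beta-cell markers was 16.09 and 16.04 in rIAPP arrays and 16.09 and 16.03 in control arrays, while their median was 12.67 and 12.55 in rIAPP arrays and 13.28 and 13.06 in control arrays. Of these 9 markers Mafa, Kcnj11 and Slc2a2 (0.19) were called higher and Ins1 and Ins2 lower, and Ins1 was the 1 leave-one-out call. Of 10 measured markers of other islet endocrine cells 6 were above the dim mark, and 2, Fev and Etv1 (−0.23), were called lower. Of 18 acinar and ductal markers 8 were above it and 1, Bhlha15 (0.21), was called higher, a call that ended when any of the 4 arrays was left out. Of 11 leukocyte markers 3 were above it, and Cd4 (0.70) and Cd68 (0.37) were called higher; the log2 of the summed level of all 11 was 11.31 and 11.34 in rIAPP arrays and 10.94 and 10.95 in control arrays. Cd4 alone read 10.57 and 10.59 in rIAPP and 9.86 and 9.91 in control arrays. Of 10 fibroblast and endothelial markers 5 were above the mark and Thy1, also a neuronal surface protein, was called lower (−0.69), with the log2 of the summed level at 11.73 and 11.77 in rIAPP arrays and at 12.24 in both control arrays. Their part in the results above was not tested.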

How the data were processed

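The authors deposited log2 intensities, which per the submitters' processing notes came from Affymetrix Expression Console with RMA (no version is given). RMA subtracts background, equalises array distributions and combines the probes of a row. Per the platform's gene table, 18511 of 36685 gene-level rows have 1 symbol, 575 several and 17599 none. The values were used as deposited.

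Group means were fitted with limma 3.58.1 (R 4.3.3; lmFit and eBayes) to the 6 gene-level arrays, with 3 residual and 4.39 prior degrees of freedom, and p-values were Benjamini-Hochberg adjusted over 18166 genes. On data simulated for rIAPP minus control with 200 changed of 18166 genes, 9.2% of changes of 0.25, 86.1% of 0.5, 99.4% of 1 and 100% of 2 were called, and 5.29% of calls were false. Far fewer genes were changed there than the 2908 called in the data, so these rates need not hold for the data. The simulated arrays varied independently, so the false share does not cover differences in the history of the clones. Correlations of deviations between arrays of the same letter were 0.0006, 0.0004 and −0.0408, so letters were not treated as pairs.

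Gene lists (36, with 1204 of 1356 genes measured) and members were chosen with earlier results of these data known. Genes named are Iapp, the 15 largest rises and falls among called genes whose groups do not overlap and whose higher mean reaches the median of all genes (without predicted loci, small RNAs and receptor families), up to 6 called members per list, the largest per chromosome stretch and 8 called against both clones. Other names were chosen after their values were seen. Chromosome order and sequences come from RefSeq GRCr8. Exon-level values, from the same arrays, served as an alternative.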

Additional observations from a re-analysis of the deposited data

How the results depend on the processing

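Of 193 called genes that the naming rule takes, 62 lost the call under at least 1 alternative and 1 changed sign: Pcdhb12 stood at −0.4358 with medians of exon-level probe sets. Leaving out 1 array at a time gave 1224 to 2867 calls for rIAPP minus control (569 to 1531 higher, 655 to 1336 lower, 108 to 115 by at least 1) and 923 to 1780 for rIAPP minus hIAPP, a group left with 1 array being assumed to vary like the others. Leaving out an hIAPP array was chosen after seeing the data. Medians of exon-level probe sets, over 16710 genes, gave 950 calls (491 higher, 459 lower) and 527 against hIAPP. Other alternatives stayed within a factor of 1.5: an intensity trend 3994, bright genes alone 3530, the mean of all rows of a symbol 2901, only the 4 rIAPP and control arrays 2867 (no hIAPP contrast) and renewed quantile normalisation 2685 (1318 higher, 1367 lower). With the letters as a replicate block 2567 genes were called, 108 by at least 1, and Iapp differed by 0.168 (adjusted p = 0.081). Iapp, at 0.168, passed with an intensity trend (0.000429) and on bright genes alone (0.0106); without 1 array it differed by 0.149 to 0.187. With 2 arrays a clone, differences near the smallest one called, 0.164, are at the limit of precision.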
